A study of Rattus norvegicus with 71 samples.

Results

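Neuronal microtubule and growth cone proteins were followed through 10 of the 17494 genes in the deposited table, in the brains of postnatal day 2 (PND2) rats. The members were chosen by symbol, as tubulins, microtubule-associated proteins and growth cone proteins that are partners of CRMP2: Tubb3, Tuba1a, Tubb2b, Map1b, Map2, Mapt, Dcx, Stmn1, Stmn2 and Gap43. All 10 passed the expression filter of every comparison.

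Microtubules are hollow polymers of alpha- and beta-tubulin dimers that fill the axon and dendrites and are assembled and dismantled at the growth cone, the motile tip of a growing neurite. Structural microtubule-associated proteins bind along the polymer and stabilize it, whereas stathmins bind free tubulin dimers and promote disassembly. CRMP2, one of the antigens in this study, carries tubulin dimers to the growing ends of microtubules during axon growth. In the early postnatal brain these genes are among the most abundant neuronal transcripts.

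The animals were Sprague-Dawley offspring, and 1 library was made from each of 71 animals of 27 litters. Control dams (saline controls) received Freund's adjuvant with saline, whereas the dams of exposed offspring received adjuvant with synthetic peptides of the proteins after which a pattern is named, so adjuvant was common to all groups. Controls numbered 24 animals from 7 litters. MARA-AB exposed animals (maternal autoantibodies related to autism) numbered 47, from 20 litters: 8 of CRMP1+CRMP2, 8 of STIP1+NSE, 6 of CRMP1+GDA and 25 of LDHA/B+CRMP1+STIP1. Batch 1, taken from the titles, held 12 controls from 3 litters and 16 LDHA/B+CRMP1+STIP1 animals from 4 litters. Batch 2 held 12 controls from 4 litters, 9 LDHA/B+CRMP1+STIP1 animals from 5 litters and all animals of the other patterns, from 4 litters of CRMP1+CRMP2, 4 of STIP1+NSE and 3 of CRMP1+GDA. Males and females numbered 6 and 6 in controls of each batch, and 8 and 8 in LDHA/B+CRMP1+STIP1 of batch 1. In batch 2 they numbered 4 and 5 in LDHA/B+CRMP1+STIP1 and 5 and 3 in CRMP1+CRMP2. The numbers were 4 and 4 in STIP1+NSE and 2 and 4 in CRMP1+GDA. Littermates share a dam, each dam carries a single exposure, and littermates are not independent, so that p-values with animals as replicates are too small where litters differ.

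Libraries held between 24880182 and 36234952 counts (median 28439195), of which the members took between 3.29% and 4.25% (median 3.64%). The lowest count of any member in any library was 19053, for Map2, so counting error was small beside the differences between animals. The tissue is labelled as a coronal slice with hippocampus, cortex and subcortical structures, whereas the series text names frontal cortex and hypothalamus. All 10 genes of a neuron marker list had counts in every library, with sums between 3520 and 4380 CPM (counts scaled to the library total) in controls of batch 2. Thalamus markers summed to between 64.9 and 153 CPM in controls of batch 1 and between 311 and 1060 CPM in controls of batch 2, and cortex and hippocampus markers to between 1810 and 2780 CPM and between 1370 and 1940 CPM. Markers of the pineal gland exceeded 20 CPM in 5 libraries and Hox genes, which mark tissue behind the forebrain, in 9. Of the 12 libraries above either limit, 4 were CRMP1+CRMP2 and 1 was a control.

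The members lie on 9 chromosomes of the rn7 build, and no exon of a member overlapped an exon of another gene in the table. Exon lengths split them into 6 short transcripts and 4 long ones. The short group comprised Stmn1 (chr5:146681490-146687151, plus strand, 1040 bases of exon), Gap43 (chr11:58376371-58470047, plus strand, 1483), Tuba1a (chr7:130113214-130116880, minus strand, 1617), Tubb2b (chr17:30747734-30750781, plus strand, 1686), Tubb3 (chr19:51457187-51466243, plus strand, 1763) and Stmn2 (chr2:93204690-93252011, minus strand, 1848). The long group comprised Mapt (chr10:89138648-89236135, plus strand, 5147), Map2 (chr9:67896970-67978289, plus strand, 5722), Dcx (chrX:107430767-107507476, minus strand, 8827) and Map1b (chr2:30817261-30910317, minus strand, 11866). Tuba1a and Tubb2b have near-identical paralogs, and since the treatment of reads that map to several genes is not given in the sources used here, the split of counts between Tuba1a and Tuba1b and between Tubb2b and Tubb2a is uncertain.

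Promoters of 7 members were matched by symbol in RefSeq on the GRCr8 build (not matched: Mapt, Stmn2, Gap43). The windows of 5 members are printed because they belong to the members whose levels moved together (Tuba1a, Tubb2b, Stmn1), to the most variable member (Map1b) and to the member that differed most between control batches (Dcx). Each run gives the 250 bases before the annotated start, 5′ to 3′ on the strand of the gene, and capitals mark matches on either strand to an E-box, a GC box, a CCAAT box or a TATA box. The windows are chr7:131995820-131996069 (minus strand) for Tuba1a, chr17:30952836-30953085 (plus strand) for Tubb2b, chr5:151964929-151965178 (plus strand) for Stmn1, chr2:32644472-32644721 (minus strand) for Map1b and chrX:112304162-112304411 (minus strand) for Dcx.
Tuba1a: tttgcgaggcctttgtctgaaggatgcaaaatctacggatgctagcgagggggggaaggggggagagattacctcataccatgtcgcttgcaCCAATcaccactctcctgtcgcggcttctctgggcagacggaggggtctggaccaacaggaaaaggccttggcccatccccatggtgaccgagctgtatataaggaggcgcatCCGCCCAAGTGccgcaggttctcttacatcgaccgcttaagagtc
Tubb2b: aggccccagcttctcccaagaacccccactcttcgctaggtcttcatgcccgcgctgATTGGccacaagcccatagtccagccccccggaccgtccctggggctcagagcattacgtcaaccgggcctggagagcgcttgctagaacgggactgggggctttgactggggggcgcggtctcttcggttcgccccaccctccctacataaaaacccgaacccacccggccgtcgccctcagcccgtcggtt
Stmn1: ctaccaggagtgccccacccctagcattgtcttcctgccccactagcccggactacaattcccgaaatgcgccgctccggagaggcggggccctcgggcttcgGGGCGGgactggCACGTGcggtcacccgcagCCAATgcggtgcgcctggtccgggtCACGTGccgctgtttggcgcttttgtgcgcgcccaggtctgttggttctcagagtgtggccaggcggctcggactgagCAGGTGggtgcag
Map1b: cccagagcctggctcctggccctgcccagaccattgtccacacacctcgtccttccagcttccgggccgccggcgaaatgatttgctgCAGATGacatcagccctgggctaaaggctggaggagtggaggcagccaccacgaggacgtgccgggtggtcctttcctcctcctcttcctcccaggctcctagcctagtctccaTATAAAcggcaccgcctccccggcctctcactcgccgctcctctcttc
Dcx: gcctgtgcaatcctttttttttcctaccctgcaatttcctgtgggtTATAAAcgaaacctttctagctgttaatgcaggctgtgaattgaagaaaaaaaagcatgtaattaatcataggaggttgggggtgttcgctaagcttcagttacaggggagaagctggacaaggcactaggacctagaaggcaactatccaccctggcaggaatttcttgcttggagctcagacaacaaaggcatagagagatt
In the Tuba1a window the GC box and the E-box share a base. A CCAAT box (letters CCAAT) was found in 4 of the 7 matched members (Tubb3, Tuba1a, Tubb2b and Stmn1, all short transcripts) and in 34% of 33469 RefSeq promoters of this length. The letters of a TATA box (TATAAA), at any distance from the start within the window, were found in Map1b and Dcx and in 12.9% of promoters. A GC box (letters GGGCGG) was found in Tubb3, Tuba1a and Stmn1 and in 30.5% of promoters. An E-box (letters CANNTG) was found in Tuba1a, Map1b, Map2 and Stmn1 and in 65.5% of promoters. The GC content was 67.6% in Stmn1, 65.2% in Tubb2b, 63.6% in Map1b, 56.8% in Tuba1a and 44% in Dcx, against a median of 51.2% over all promoters.

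Levels were compared between members per length, as RPKM (TMM-scaled CPM divided by the exon length in kilobases). Tuba1a, the main alpha-tubulin of young neurons, was highest at 5021 ± 592.7 RPKM (SD over 71 libraries). Tubb2b, a beta-tubulin of migrating and growing neurons, followed at 3561 ± 361 RPKM, and Tubb3, the neuron-specific beta-tubulin, lay at 2072 ± 181 RPKM. Between these beta-tubulins stood Stmn1, the broadly expressed stathmin, at 2862 ± 425 RPKM. Within a library Tuba1a exceeded Tubb2b in 71 of 71 libraries, whereas Stmn1 exceeded Tubb3 in 70 of 71, and the ranges of each pair of neighbours overlapped over all libraries.

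Stmn2, the neuron-specific stathmin of growth cones, lay at 1327 ± 133.4 RPKM. Gap43, a membrane protein of growth cones and axon terminals, lay at 1019 ± 103.7 RPKM. The gap below Gap43 was the only one between neighbours at which the ranges did not overlap: its lowest library held 739.4 RPKM, and the highest library of Mapt held 730.3 RPKM.

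The stabilizing proteins and doublecortin formed the lower end of the order. Mapt, which encodes the axonal protein tau, averaged 618 ± 40.71 RPKM. Map1b, the first of these proteins to appear in growing axons, averaged 459.9 ± 95.58 RPKM, and was below Mapt in 66 of 71 libraries. Dcx, the doublecortin of migrating neurons, averaged 266.2 ± 42.5 RPKM and Map2, the protein of dendrites, averaged 172.9 ± 32.04 RPKM. Without division by length, on the CPM scale, Map1b ranked 3 and Stmn1 ranked 6, so the place of the long transcripts depends on the length given for their exons. Scaling by library size alone kept every rank.

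**Figure D1:**
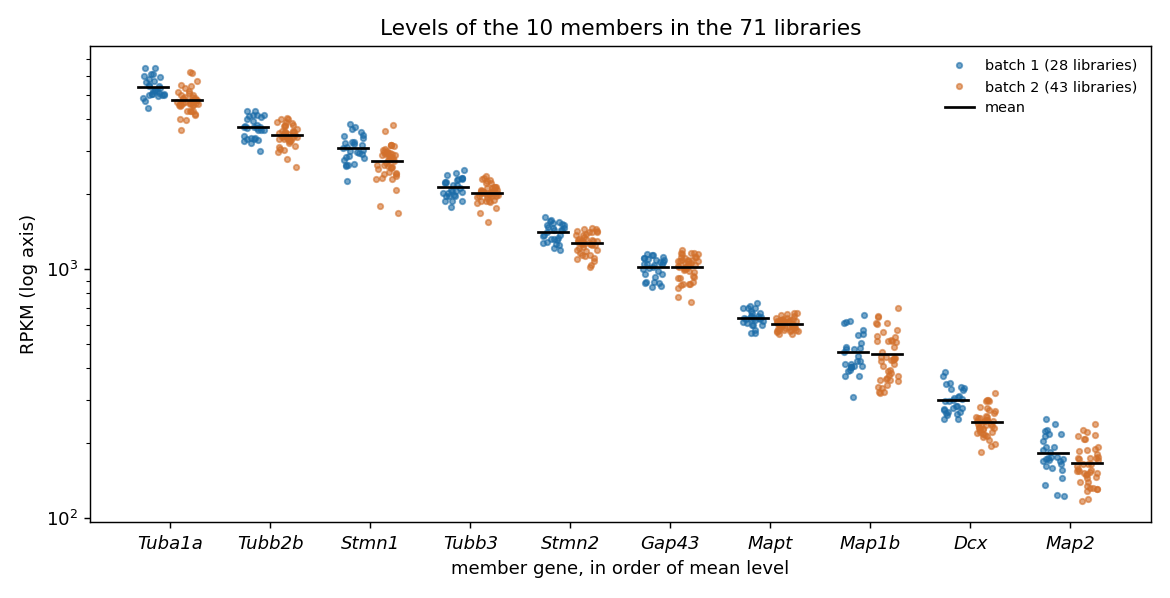
RPKM (log axis) of the 10 members in order of mean level, with 1 point per library, batch 1 (28 libraries) beside batch 2 (43 libraries), and a bar at the mean of each batch. Tuba1a is at the top and Map2 at the bottom, and the lowest Gap43 point (739.4) lies just above the highest Mapt point (730.3).

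Members differed in how far they varied between animals. Over 71 libraries the SD of log2 CPM was 0.29 for Map1b, 0.27 for Map2, 0.23 for Dcx and 0.22 for Stmn1, and only 0.09 for Mapt. Of the sum of squares of Map1b, 61.4% lay between litters of the same label and batch and 32.6% between littermates, with 0.642% between batches. For Dcx 41.8% lay between batches, the highest share of any member, followed by Tuba1a with 27.3% and Stmn2 with 24%. Label within batch took between 1.43% (Tuba1a) and 14.2% (Gap43), and Stmn2 stood at 10.7%. These shares are descriptions and were not tested: a level with more groups, such as litter, takes a larger share by chance alone.

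To describe which members moved together, log2 CPM was expressed as the deviation from the mean of the same label and batch, and correlated over the 71 libraries. These correlations are given as descriptions, since libraries share litters and processing. All 15 pairs of short transcripts correlated positively, with Pearson's r between 0.54 and 0.89 (median 0.77), highest for Tubb2b with Stmn1. All 6 pairs of long transcripts were positive too, between 0.44 and 0.93 (median 0.58), highest for Map1b with Map2. The 24 pairs of a long and a short transcript ran from -0.60 (Map2 with Stmn1) to 0.47 (Tubb3 with Mapt), with a median of -0.20, and 10 of them were positive.

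The within-block pairs held in each batch. Tubb2b with Stmn1 reached 0.90 in batch 1 and 0.89 in batch 2, and Map1b with Map2 reached 0.91 and 0.95. Pairs across the blocks were less stable. Tuba1a with Map1b was 0.12 in batch 1 and -0.57 in batch 2, and Stmn2 with Dcx was 0.43 and -0.38. Gap43 with Map1b was negative in both, at -0.61 and -0.53. Over 27 litter means Stmn1 with Map2 was -0.80 and Stmn2 with Gap43 was 0.94.

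**Figure D2:**
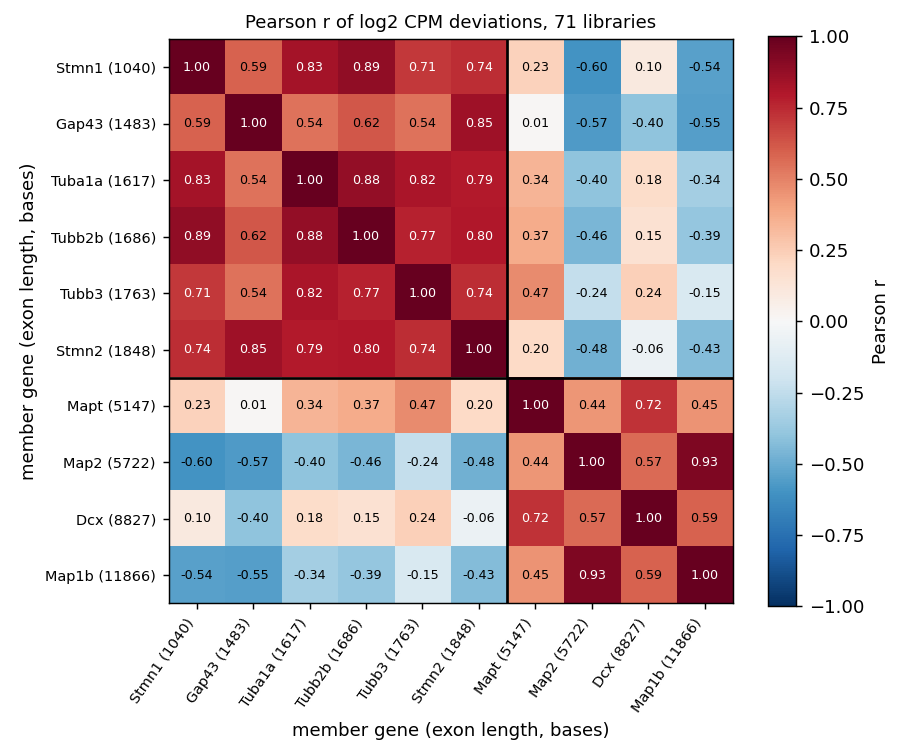
Pearson's r of log2 CPM deviations between each pair of members over 71 libraries, ordered by exon length (in bases, in parentheses), with black lines between the 6 short and the 4 long transcripts. The upper left block runs from 0.54 to 0.89 and the lower right block from 0.44 to 0.93, and the cells between blocks run from -0.60 to 0.47.

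Exon length itself was followed by an index, the mean log2 CPM of 1022 genes with exons of at least 5000 bases minus that of 3730 genes under 2000 bases, with the members left out. Deviations of this index correlated with Map2 at r = 0.93 (Spearman's rho 0.93) and with Map1b at 0.90 (rho 0.89). They correlated with Gap43 at -0.74 (rho -0.75), Stmn1 at -0.71 (rho -0.71), Stmn2 at -0.67 (rho -0.67) and Tubb2b at -0.62 (rho -0.60). The lowest sizes were those of Mapt, at 0.30 (rho 0.35), and Tubb3, at -0.41 (rho -0.38). Leaving out the 2 libraries farthest from the median index gave 0.92 for Map2 and -0.73 for Gap43. For some members other measures had a larger r in size than the index. Summed cortex and hippocampus markers correlated with Tuba1a and Dcx at 0.61, Mapt at 0.57 and Tubb3 at 0.51. With Map1b they stood at 0.02 over both batches, but at 0.66 in batch 1 and -0.21 in batch 2. With Map2 they also stood at 0.02, with 0.46 in batch 1 and -0.18 in batch 2. Thalamus markers and cycling progenitor markers each correlated with Tuba1a at -0.64. Neuron markers correlated with Gap43 at 0.52, below the size of its r with the index. Which measure the members follow was not tested. The index was 1.089 ± 0.155 in controls of batch 1, 1.022 ± 0.185 in controls of batch 2 and 1.216 ± 0.205 in CRMP1+CRMP2 (SD over animals), and between 0.988 and 1.13 in the other exposed groups. The ranges overlapped, from 0.951 to 1.463 in CRMP1+CRMP2 and from 0.699 to 1.269 in batch 2 controls, and the litters of CRMP1+CRMP2 stood apart from each other, with 9_6 at 1.458 and 1.463 and 9_16 at 0.971 and 0.951. The difference in the index between groups was not tested.

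**Figure D3:**
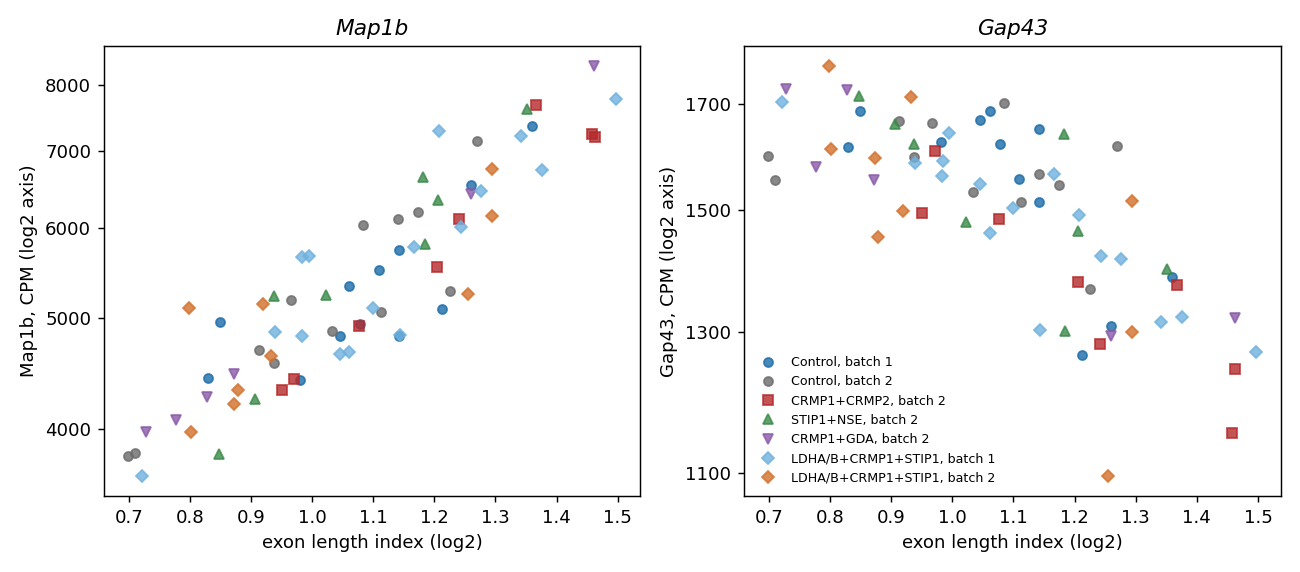
CPM (log2 axis) of Map1b and Gap43 against the exon length index of each library (log2 units), with a symbol for each label and batch. Map1b rises and Gap43 falls along the index in the controls as well as in the exposed groups, and the 2 CRMP1+CRMP2 libraries of litter 9_6 sit near the right edge at 1.458 and 1.463.

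The genes most like each member, by r of deviations over 71 libraries among 9473 genes, differed between the members. Tubb3 was closest to Tubb5, another beta-tubulin (r = 0.88), and Tuba1a to Crmp1, the gene of an antigen of 3 of the patterns (r = 0.88). Map1b was closest to Nexmif (r = 0.97), Mycbp2 (0.95) and Ank3 (0.95), whose exons span 11124, 15421 and 10206 bases, and Map2 was closest to Ank3 (0.95), which anchors the axon initial segment, and Ankrd17 (0.95). Stmn1 was closest to Commd3 (0.93), with 921 bases of exon. Gap43 was closest to Stmn3 (0.89), a further neuronal stathmin, and to Acot7 (0.89). Stmn2 was closest to Ywhae (0.87), Tubb2b to Kcnmb4 (0.87), Dcx to Aff3 (0.87) and Mapt to Dpysl5, of the CRMP family (0.80).

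The general comparison asked whether exposure of any pattern changed the members, with 47 MARA animals against 24 controls and 1 surrogate variable as covariate. No member passed FDR < 0.1 (the quasi-likelihood test of edgeR, adjusted by Benjamini-Hochberg over all genes tested), where 0.0321% of 12477 genes did. Log2 fold changes of the members ran from -0.07 to 0.08, with a median of 0.01 beside 0.00 over all genes. Stmn2 (-0.07, SE 0.03, unadjusted p = 0.0257, adjusted p = 0.414) and Gap43 (-0.07, SE 0.04, unadjusted p = 0.0489, adjusted p = 0.483) had an unadjusted p under 0.05, which 10.3% of genes had. No gene of the 8 wider lists of tubulins, microtubule and growth cone genes passed in this comparison.

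In CRMP1+CRMP2, the growth cone genes Stmn2 and Gap43 were called lower against all controls with animals as replicates, and no other member was called. Neither gene was called with counts summed per litter, in batch 2 alone or without litter 9_6. Among tubulins outside the members, Tubb2a (-0.22), Tuba1b (-0.196) and Tubb4b (-0.144) were called lower in the same fit. Whether growth cone genes changed more than tubulins or structural microtubule-associated proteins was not tested. Levels of Stmn2 in the 8 exposed animals had a low of 1889, a median of 2196 and a high of 2392 CPM. Controls of batch 2 had 2204, 2409 and 2694 CPM, and those of batch 1 had 2212, 2680 and 2995 CPM. All 8 exposed animals lay below the median of the batch 2 controls and 4 lay below their lowest, though the ranges overlapped.

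For Gap43 the exposed animals had a low of 1154, a median of 1376 and a high of 1609 CPM. Controls of batch 2 had 1367, 1582 and 1703 CPM, and those of batch 1 had 1265, 1619 and 1687 CPM. Of the exposed animals 7 lay below the batch 2 control median and 3 below the lowest such control, so these ranges overlapped as well.

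Against all 24 controls, with 1 surrogate variable, Stmn2 fell by 11.4% (log2 fold change -0.175, SE 0.041, adjusted p = 0.0155) and Gap43 by 11.6% (-0.179, SE 0.053, adjusted p = 0.0452). In this comparison 11.4% of 12691 genes were called, 613 higher (4.83%) and 832 lower (without normalization factors 897 of 1364 were higher), and 6.56% were called lower, beside 2 of the 10 members. The median over members was -0.036, beside 0.007 over all genes. In bulk tissue, fewer cells of a type and less RNA per cell cannot be told apart.

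The calls rested on the litter as much as on the animal. Litter means of Stmn2 were 2286 (litter 9_1), 2158 (9_11), 2360 (9_16) and 1909 CPM (9_6) in CRMP1+CRMP2, and 2418, 2656, 2347 and 2495 CPM in batch 2 controls, so litter 9_6 stood below the rest and litter 9_16 lay within the control litters. Those of Gap43 were, in the same order, 1431, 1328, 1552 and 1199 CPM, against 1608, 1664, 1503 and 1577 CPM. Both animals of litter 9_6 were male, and the fit against all controls had no sex term. Without litter 9_6 the log2 fold changes were -0.10 for Stmn2 (adjusted p = 0.403) and -0.12 for Gap43 (adjusted p = 0.492). With counts summed per litter, and batch in place of the surrogate variable, the log2 fold changes were -0.18 and -0.20. Their unadjusted p was 0.0245 and 0.0271 (edgeR), with adjusted p = 0.435 for both.

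Within batch 2 alone, with sex as covariate, Stmn2 was at -0.155 (SE 0.048, adjusted p = 0.122) and Gap43 at -0.18 (SE 0.053, adjusted p = 0.113), so that neither passed in the exposed animals' own batch. With the exon length index as a further covariate, an alternative chosen after seeing the data, Stmn2 stood at -0.118 (adjusted p = 0.0529) and Gap43 at -0.107 (adjusted p = 0.176). Without the libraries with pineal or Hox markers above 20 CPM, also chosen after seeing the data, values were -0.159 (adjusted p = 0.363) and -0.166 (adjusted p = 0.416), with 4 exposed animals left.

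**Figure D4:**
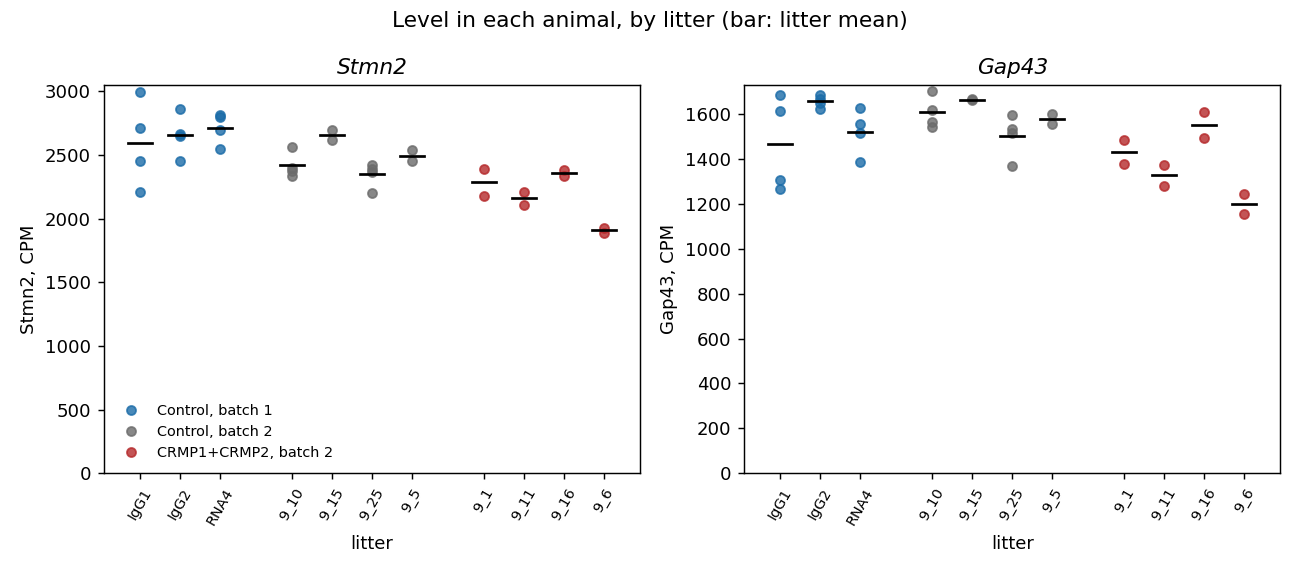
CPM of Stmn2 and Gap43 in each animal, grouped by litter, for controls of batch 1 (3 litters) and batch 2 (4 litters) and for CRMP1+CRMP2 (4 litters), with a bar at each litter mean. All 4 exposed litters have a lower Stmn2 mean than the mean of the batch 2 control litters, and litter 9_6 is lowest in both genes, at 1909 CPM for Stmn2 and 1199 CPM for Gap43.

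The other 8 members gave no call in CRMP1+CRMP2. Map1b was at 0.194 (SE 0.112, adjusted p = 0.283), Map2 at 0.157 (SE 0.101, adjusted p = 0.334) and Dcx at 0.107 (SE 0.056, adjusted p = 0.227). With PC1 and PC2 as covariates Map1b (0.311, adjusted p = 0.0674) and Dcx (0.20, adjusted p = 0.0275) were called higher. Map1b was also called without litter 9_10 (0.306) and without litter 9_16 (0.324), and Dcx without litter 9_16 (0.178). Exposed animals held between 4331 and 7690 CPM of Map1b (median 5823) and batch 2 controls between 3790 and 7144 CPM (median 5124). Of the 8 exposed animals 3 lay above the highest such control for Map1b, 4 for Dcx and 0 for Map2, though the ranges overlapped. For Dcx the highest exposed animal held 2821 CPM and the highest batch 2 control 2250 CPM. Stmn1 stood at -0.080, Tubb3 at -0.069, Tubb2b at -0.050, Tuba1a at -0.023 and Mapt at -0.002, with SEs between 0.034 and 0.065. Over all genes the fold changes of this comparison also ran with exon length: the median was -0.046 for 5491 genes under 2000 bases and 0.117 for 1160 genes of at least 5000 bases, with 508 called lower and 130 higher among the short and 9 called lower and 169 higher among the long. The part of exon length in the values of Map1b, Map2 and Dcx was not tested beyond the covariate above, under which Map1b stood at -0.060, Map2 at -0.067 and Dcx at 0.014, and 5 of the 10 members kept their sign.

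The calls of the wider lists in CRMP1+CRMP2 also treat littermates as replicates. Of all genes 1445 were called, against 33 with litter as a random effect and 41 without litter 9_6. With counts summed per litter 0 were called, but that fit also had batch in place of the surrogate variable. Its count therefore does not isolate the treatment of littermates. With animals as replicates, 3 of 13 other tubulins were called, all lower: Tubb2a (-0.22, adjusted p = 0.013), Tuba1b (-0.196, 0.0699) and Tubb4b (-0.144, 0.0903). Of 45 other microtubule-associated proteins 2 were called higher and 6 lower, with the stathmins Stmn4 (-0.23, adjusted p = 0.00816) and Stmn3 (-0.247, 0.0273) and the plus-end protein Slain2 (0.16, 0.0574). Of 36 other growth cone genes 2 were higher and 4 lower, among them Pfn2, a profilin of actin assembly (-0.169, adjusted p = 0.0378), the axonal adhesion molecule Cntn2 (0.41, 0.0397) and Evl (-0.107, 0.0574). Of 38 motor genes 1 was higher and 5 lower, led by the kinesin light chain Klc1 (-0.179, adjusted p = 0.00246), Dctn6 (-0.243, 0.00882) and Dynlt3 (-0.288, 0.0421).

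On the same animal-level basis, which left no gene called with counts summed per litter, 3 of 28 kinases and phosphatases that act on microtubule proteins were lower, Brsk1 (-0.147, adjusted p = 0.0268), the Cdk5 activator Cdk5r2 (-0.266, 0.0398) and Fyn (-0.098, 0.083). Of 32 genes of tubulin modification and folding 1 was higher, the severing enzyme Spast (0.137, adjusted p = 0.0468). Nefl, the light neurofilament, was lower among 5 neuronal intermediate filaments (-0.361, adjusted p = 0.0181), and of 5 CRMP family genes Dpysl2, which encodes CRMP2, was lower (-0.154, adjusted p = 0.0871). Shares called were thus 23.1% of other tubulins, 17.8% of other microtubule-associated proteins, 16.7% of growth cone genes, 15.8% of motors, 10.7% of kinases and phosphatases and 3.12% of genes of tubulin modification and folding, beside 11.4% of all genes.

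Marker lists of other tissues were called in the same comparison with animals as replicates, and no gene of them with counts summed per litter. All 7 choroid plexus markers and 6 of 7 pineal markers were called higher against all 24 controls. Summed choroid levels were between 193 and 3330 CPM in exposed animals, between 137 and 2860 CPM in batch 2 controls and between 4.04 and 112 CPM in batch 1 controls. Pineal sums had a median of 11.2 CPM in exposed animals, of which 2 held 265 and 77.5 CPM, and of 9.11 CPM in batch 2 controls, with a highest of 16 CPM. Of 10 neuron markers 3 were called lower (Syp -0.294, Eno2 -0.221 and Syt1 -0.175), with sums between 3270 and 4160 CPM in exposed animals against 3520 to 4380 CPM, and of 8 oligodendrocyte lineage markers 2 were lower. No neuron marker was at 0 in any library, and Crx, a defining pineal factor, was at 0 in 57 of 71. The part of these tissues in the values of Stmn2 and Gap43 was not tested beyond leaving out the libraries above.

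In STIP1+NSE no member was called (0.0474% of 12660 genes were), and none had an unadjusted p under 0.05, which 3.19% of genes had. Fold changes ran from -0.045 for Stmn2 to 0.155 for Map1b (SE 0.116). Map1b held between 3804 and 7623 CPM (median 5525) in the 8 animals, 6 of which lay above the batch 2 control median and 1 above the highest such control. In CRMP1+GDA no member was called either, and no gene was (0% of 12641), with 3.65% of genes and no member at an unadjusted p under 0.05. Fold changes ran from -0.037 for Gap43 to 0.10 for Tuba1a (SE 0.055, unadjusted p = 0.0801, adjusted p = 0.999, edgeR). Tuba1a held between 6742 and 9235 CPM (median 7898) in the 6 animals, which lay evenly on both sides of the batch 2 control median. DESeq2 called no member in either pattern.

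In LDHA/B+CRMP1+STIP1, the only pattern in both batches, no member was called among 25 animals against 24 controls (0.0157% of 12700 genes were), and values ran from -0.067 for Gap43 to 0.033 for Stmn1, with 7.17% of genes and no member at an unadjusted p under 0.05. Gap43 held between 1269 and 1705 CPM in the exposed animals of batch 1 (median 1498) and between 1097 and 1777 CPM in those of batch 2 (median 1516), both overlapping the controls of the same batch. Within batch 1 Gap43 stood at -0.064 (SE 0.051) and Stmn2 at -0.049 (SE 0.046), and within batch 2 at -0.073 (SE 0.066) and -0.048 (SE 0.054). No member was called in batch 1 (0.0161% of genes were, and 5.45% had an unadjusted p under 0.05) or in batch 2 (0% and 4.84%), and none had an unadjusted p under 0.05. For the difference between the effects of both batches the lowest unadjusted p of a member was 0.321, for Map2, at -0.141 (SE 0.14), with 0.11% of genes and no member called, and 3.05% of genes at an unadjusted p under 0.05.

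Stmn2 and Gap43 had negative values in each of the 4 patterns. Stmn2 stood at -0.175 in CRMP1+CRMP2, -0.045 in STIP1+NSE, -0.025 in CRMP1+GDA and -0.059 in LDHA/B+CRMP1+STIP1, and Gap43 at -0.179, -0.031, -0.037 and -0.067. These comparisons share their 24 controls, so the signs are not independent. Tested together for any difference among the 5 labels of batch 2, no member was called (0.00785% of 12738 genes were, and 7.78% had an unadjusted p under 0.05). Stmn2 had the lowest unadjusted p of a member, 0.13 (adjusted p = 0.66), followed by Gap43 with 0.137 (adjusted p = 0.663), so that the patterns were not shown to differ from each other in either gene.

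**Figure D5:**
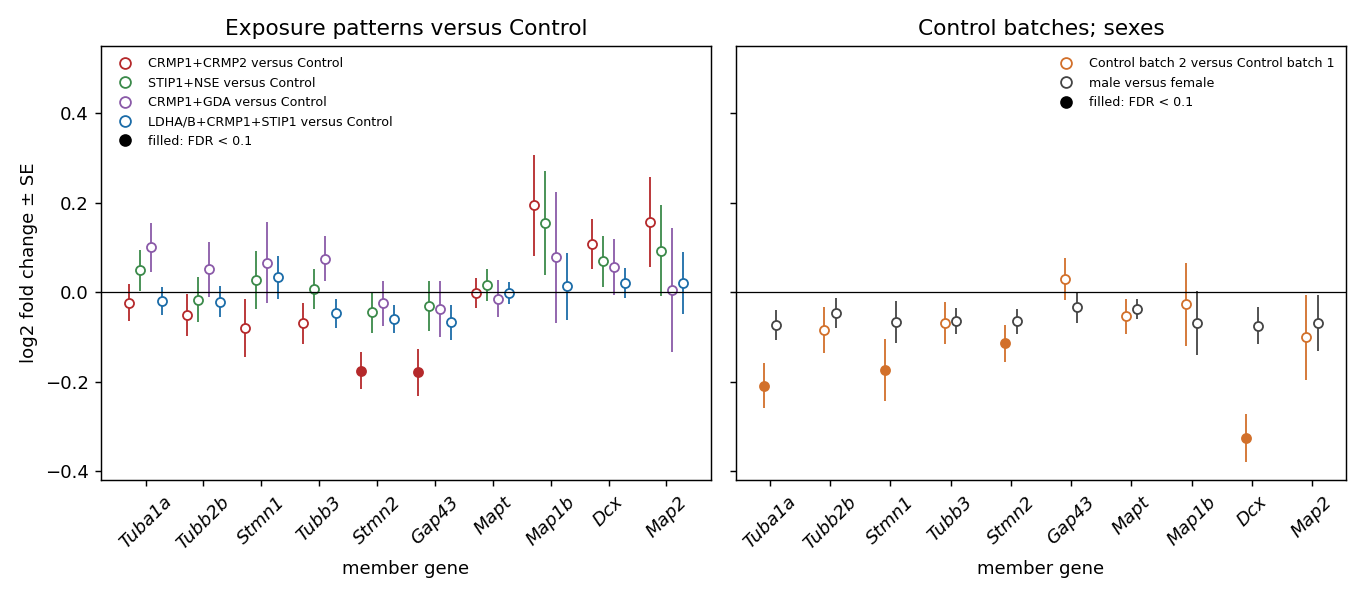
Log2 fold change with its SE for each member, left for each exposure pattern against controls and right for controls of batch 2 against batch 1 and for males against females, with filled points at FDR < 0.1. Only Stmn2 and Gap43 in CRMP1+CRMP2 and Dcx, Tuba1a, Stmn1 and Stmn2 between control batches are filled.

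Controls alone were compared between batches, 12 animals of 4 litters in batch 2 against 12 of 3 litters in batch 1, with sex as covariate. Dcx, Tuba1a, Stmn1 and Stmn2 were lower in batch 2, and no member was higher. Of 12565 genes 41.5% were called and 20.2% were called lower (21.3% higher), so 4 of 10 in all is near the share of all genes. Dcx had a low of 2218, a median of 2553 and a high of 3422 CPM in batch 1 and 1762, 2105 and 2250 CPM in batch 2, where all 12 animals lay below the batch 1 median and 9 below its lowest animal. It fell by 20.2% (log2 fold change -0.325, SE 0.054, adjusted p = 4.59e-05).

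Tuba1a had a low of 7189, a median of 8726 and a high of 10440 CPM in batch 1, against 6512, 7663 and 8378 CPM in batch 2, and fell by 13.5% (-0.209, SE 0.05, adjusted p = 0.00218). All 12 animals of batch 2 lay below the batch 1 median, and 2 below the lowest. Stmn2 fell by 7.62% (-0.114, SE 0.041, adjusted p = 0.0319) and Stmn1 by 11.3% (-0.173, SE 0.069, adjusted p = 0.0547). Gap43 was at 0.029 (SE 0.047), Map1b at -0.027 (SE 0.093) and Mapt at -0.054 (SE 0.039). With counts summed per litter Dcx alone passed (-0.336, adjusted p = 0.0182), and Tuba1a stood at -0.187 (adjusted p = 0.123). Without litter RNA4, and likewise without litter 9_25 or litter 9_10, Stmn1 and Stmn2 were not called, with Stmn1 at -0.125 (adjusted p = 0.278), -0.086 (0.48) and -0.153 (0.173).

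Other genes of the pathway moved in both directions between control batches. These calls treat littermates as replicates, and fewer genes of the table were called with counts summed per litter. Of all genes 41.5% were called, beside 23.1% of other tubulins and 48.9% of other microtubule-associated proteins. Of growth cone genes 41.7% were called and of motors 45.9%, so most of these counts are near the share of all genes. Of 13 other tubulins 1 was higher and 2 lower, with Tubg2, a gamma-tubulin, at 0.55 (adjusted p = 4.56e-08), Tuba1b at -0.195 (0.0154) and Tubb4a at -0.136 (0.0356). Of 45 other microtubule-associated proteins 8 were higher and 14 lower, led by Map9 (-0.304, adjusted p = 3.41e-05), the doublecortin-like kinase Dclk3 (-0.534, 7.44e-05) and Tppp3 (0.797, 0.00031). Of 36 growth cone genes 3 were higher and 12 lower, with Nrn1, neuritin, at 1.943 (adjusted p = 4.9e-10), Abi2 at -0.194 (7.04e-05) and Evl at -0.154 (0.000198). Motor genes were higher in 5 and lower in 12 of 37, led by Kif5b (-0.306, adjusted p = 3.56e-06), Dync1i1 (-0.47, 3.51e-05) and Kifap3 (-0.233, 4.56e-05).

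Kinases and phosphatases were lower in 10 and higher in 1 of 28, with Prkca at -0.925 (adjusted p = 4.56e-08), Prkcb at -0.443 (1.19e-06) and Mark1 at -0.286 (0.000162). Of 32 genes of tubulin modification and folding 5 were higher and 8 lower, with the severing enzyme Fign at 1.995 (adjusted p = 2.19e-08), Ttl, the tubulin tyrosine ligase, at -0.246 (0.000399) and Agbl4 at 0.744 (0.000605). Of 5 neuronal intermediate filaments 4 were higher, led by Ina (0.321, adjusted p = 3.71e-06), Nefl (0.689, 1.46e-05) and Nefm (0.247, 0.00374). Of 5 CRMP family genes 1 was higher and 3 lower, led by Dpysl3 (-0.233, adjusted p = 0.00182), Dpysl5 (-0.226, 0.0026) and Crmp1 (-0.164, 0.00727). Shares called were thus 39.3% of kinases and phosphatases and 40.6% of genes of tubulin modification and folding, beside 41.5% of all genes. The 2 lists of 5 genes each had 80% called. All 7 thalamus markers were higher in batch 2 and of 9 cortex and hippocampus markers 6 were lower and 2 higher (Prox1 at 2.05 and Slc17a7 at 0.247), beside these changes. Batch and the part of the brain in the slice cannot be told apart here.

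Between the sexes, over all 71 animals with label and batch as terms, no member was called (0.0624% of 12816 genes were). All 10 members had a lower value in males, from -0.034 for Gap43 to -0.075 for Dcx, with a median of -0.066 beside 0.00 over all genes. These 10 signs are not independent, since many members moved together over the same libraries. Stmn2 (-0.065, SE 0.028, unadjusted p = 0.0251), Tubb3 (-0.065, SE 0.029, unadjusted p = 0.0258) and Tuba1a (-0.073, SE 0.034, unadjusted p = 0.0385) had an unadjusted p under 0.05, which 4.7% of genes had, and their adjusted p was 0.99. In 22 litters with both sexes the male mean of Dcx was the lower in 17, that of Stmn2 in 16 and that of Tubb2b and of Map1b in 13. With litter as a block, which pairs the sexes within litters, all 10 values stayed negative and none was called, with Dcx at -0.10 (SE 0.036, unadjusted p = 0.0073, adjusted p = 0.485, edgeR) and Stmn2 at -0.056 (SE 0.023, unadjusted p = 0.0201, adjusted p = 0.55), and these were the only members with an unadjusted p under 0.05. No gene of the wider lists of the pathway was called between the sexes.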

How the data were processed

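Counts per gene were deposited by the authors, who aligned poly-A, paired-end reads to the rat genome rn7 with STAR 2.5.4b and counted them with featureCounts (per the labels and the study's methods); counting options are not given in the sources used here. The deposited table also lists exon bases per gene, another value written by the authors' counting tool. It holds 17494 genes in 71 libraries, with 0 columns left without a sample, and 74.5% of counts from 1 to 9 were even. Library totals ran from 24880182 to 36234952 counts.

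Tests were run in R 4.3.3 with edgeR 4.0.16 (TMM, robust quasi-likelihood fit and test), limma 3.58.1, sva 3.50.0 and DESeq2 1.42.0, fitted over all genes that passed the filter with Benjamini-Hochberg adjustment and FDR < 0.1. Comparisons across batches had 1 surrogate variable (svaseq on TMM-scaled counts) as covariate, those within a batch, between batches or between control batches had sex, and the sex comparison had label by batch. Genes had to reach 1 CPM in 8 or more libraries in the general comparison and to exceed 1 CPM in 2 or more in the others. The SE is the log2 fold change divided by the square root of F. Animals were the replicates. Log2 CPM used a prior count of 2. Likeness was Pearson's r of log2 CPM deviations from the mean of the same label and batch, among genes with a mean log2 CPM of at least 3. RPKM were computed from TMM-scaled libraries and the deposited exon lengths. The scripts were tested on simulated counts with known changes, larger than those of the called members and without differences between litters. That test therefore says nothing about calls with littermates as replicates.

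All members are named. Of each wider list up to 3 called genes with the smallest p are named per comparison, and per member up to 3 most alike genes. Members and lists were chosen with earlier results of these data known. Alternatives were DESeq2, other normalizations, no filter, halved counts, counts summed per litter, litter as a random effect (voom with duplicateCorrelation), litter as a block for the sexes, other covariates, batch 2 alone and each litter left out. Fits of counts summed per litter had no sex covariate, and had batch in place of the surrogate variable where the main fit used one. The authors' own comparisons were not used.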

Additional observations from a re-analysis of the deposited data

Results flagged for a closer look

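Of 40 combinations of a member with a group of 4 to 10 animals, 1 had an animal far from the rest. Stmn1 in a female of litter 9_8 (CRMP1+GDA, batch 2) had 1753 CPM, and the nearest of the other 5 animals had 2847 CPM, in a group whose highest animal had 3277 CPM. The same library had the highest Hox sum (206.7 CPM) and the highest thalamus marker sum (1185 CPM) of the 71 libraries, an exon length index of 1.462 and the highest level of Map1b (8303 CPM), and the part of these in the Stmn1 value was not tested. Chance alone marks about 1 in 20 such groups by this test of the gap between an end value and its neighbour.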

How the results depend on the processing

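Of 11 comparisons, 9 had no member called, and none of the 170 alternatives of these gave a call. In CRMP1+CRMP2 the count of members called, 2 as reported, was 0 with counts summed per litter (0 of all genes called), with litter as a random effect (33), in batch 2 alone (127) and without the pineal or Hox libraries (1), 1 with the exon length index as covariate (826) and 4 with PC1 and PC2, where Map1b (0.311) and Dcx (0.20) were called higher (2394). The whole-table count was 1445 as reported and 491 with batch and sex as covariates. With upper-quartile normalization 802 of 1378 calls were higher. The fit of counts summed per litter had batch in place of the surrogate variable, so it changed the covariate as well as the replicate. Leaving out each litter gave between 0 (litter 9_6) and 4 (litter 9_16) members, and between 41 and 2889 genes, with 1 member (Stmn2) without litter 9_11. Stmn2 and Gap43 kept their negative sign in each of the 14 alternatives and 11 litters left out. Between control batches, 4 as reported became 1 with counts summed per litter (1895 of all genes, 5218 as reported) and 2 with litter as a random effect (2833), and between 2 and 5 with each litter left out. The exon length index, the pineal or Hox libraries and the thalamus markers were added after seeing the data. With litter as a replicate block, added after seeing the data, the sexes were paired within litters and 0 members were called (9 of all genes). For exposure and batch no paired analysis was possible because each dam carries a single label and replicate numbers follow accession order only. Depth limited no member, since the lowest count was 19053.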
